A study of Mus musculus with 10 samples.

Results

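The circadian clock genes described here are 10 genes of the molecular clock, chosen by name: Per1, Per2, Per3, Cry1, Cry2, Arntl (also called Bmal1), Clock, Nr1d1, Nr1d2 and Dbp. All 10 had a single row in the mRNA tables, out of 40904 gene symbols, and all 10 passed the minimum mean of 1 FPKM that 13740 genes passed. FPKM is the number of sequenced fragments scaled to transcript length and to the number of mapped fragments. The samples were cultured cortical neurons from E14 embryos of ICR mice, collected at day 11 in vitro. One group had received AAV-Control, a control adeno-associated virus, and the other AAV-Gata1, a virus carrying Gata1, the zinc finger transcription factor of red cell and platelet development. Each group had 1 mRNA library and 1 small RNA library. The promoter that drives Gata1, the time of day of collection and any change of medium before it are not given in the sources used here.

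The clock is a feedback loop of transcription that runs in neurons and glia alike. CLOCK and ARNTL bind E-box elements as a dimer and switch on the period and cryptochrome genes, whose proteins return to the nucleus and inhibit the dimer. In a second loop the same dimer switches on Nr1d1 and Nr1d2, whose REV-ERB proteins repress Arntl, and Dbp, whose protein acts at D-box elements of output genes. Transcripts of the loop peak at different times of day, and cells of a culture drift out of phase unless a stimulus aligns them.

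Since each group had a single library, the conditions could not be tested against each other, and no difference below has a replicate check. The delivered gene, Gata1, was listed at 0 in the control library and reached 2.07 FPKM in the other. Depth of the mRNA libraries is unknown. Neuronal markers were present, among them Map2 at 239.7 and 236.4 FPKM. Astrocyte markers were present too. The most abundant of these, Gfap at 887 and 897 FPKM and Slc1a3 at 607 and 610 FPKM, exceeded every measured neuronal marker. Some other astrocyte markers lay below Map2. The cultures labelled as neurons thus also held glial transcripts. Markers of microglia, given further on, were higher in the Gata1 library.

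The clock genes stood at nearly the same levels in both libraries. On the scale of log2((Gata1 FPKM + 1)/(control FPKM + 1)), which understates differences of genes with low values, they ran from −0.14 for Per1 to 0.12 for Per2. Their median was 0.013, beside −0.013 over all 13740 genes. On this scale 6 of the 10 were higher and 4 lower in the Gata1 library, beside 45.3% higher and 54.7% lower of all genes. None of the 10 reached 1.2-fold in either direction, a size that 3.29% of all genes reached upward and 3.98% downward, and none reached 2-fold, which 0.233% and 0.284% of all genes did. A count of 0 in 10 is near those shares. All 10 lay inside the middle 80% of all genes, which spans −0.17 to 0.14, and 5 of the 10 lay inside the middle 50%. The median distance from 0 was 0.064 for the clock genes and 0.073 for all genes. In such bulk samples a lower level cannot be assigned to fewer cells of a type or to less RNA per cell.

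**Figure D1:**
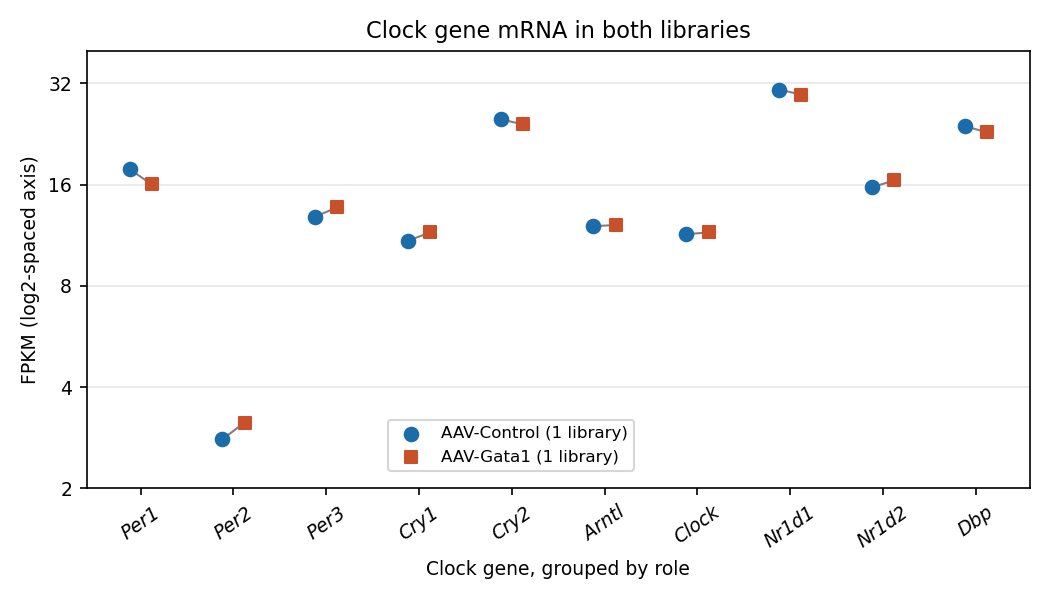
FPKM of the 10 clock genes (log2-spaced axis) in the AAV-Control library (blue circles) and the AAV-Gata1 library (orange squares), with a grey line joining the values of a gene. The values lie between 2.80 FPKM (Per2, control) and 30.7 FPKM (Nr1d1, control), and the values of Per1 and Nr1d2, and of Clock and Cry1, overlap between libraries.

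**Figure D2:**
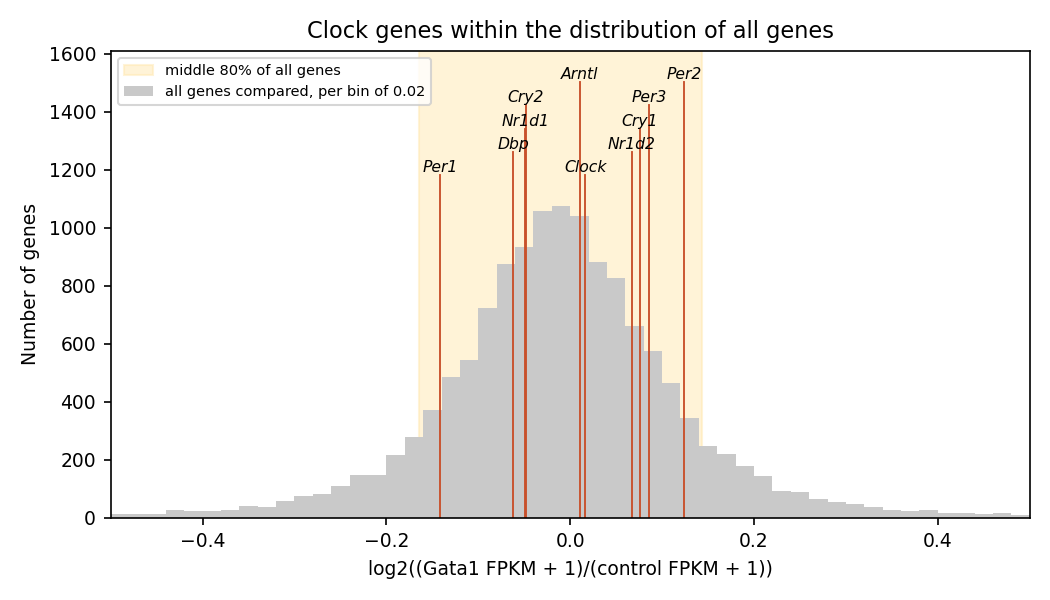
Number of genes per bin of 0.02 of the log2 ratio between libraries (grey bars, 13740 genes averaging at least 1 FPKM, axis limited to −0.5 to 0.5), with the clock genes as orange lines. All 10 lines fall inside the shaded middle 80% of all genes.

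Period genes were the members furthest from equal, and they went opposite ways. Per1, a repressor that is also induced quickly by cAMP, calcium and glucocorticoid signals, read 17.8 FPKM with AAV-Control and 16.02 FPKM with AAV-Gata1. Its log2 ratio was −0.14, a difference of −9.86% in FPKM, and 13.1% of all genes had a lower ratio. Per2, the repressor whose loss shortens and then abolishes rhythms in mice, was the lowest member, at 2.80 and 3.14 FPKM. Its log2 ratio of 0.12, 12.2% in FPKM, exceeded that of 87.7% of all genes. Per3, a member of the family that mice can lack with little effect on rhythm, read 12.8 and 13.7 FPKM, a log2 ratio of 0.086. Thus Per1 was the higher value in the control and Per2 and Per3 were the higher values in the Gata1 library. Within a library, where no scaling between libraries enters, Per1 stood at 6.35 times Per2 in the control and at 5.11 times in the Gata1 library. Of the 12 ratios between members that were computed this one differed most between libraries, by −0.32 on a log2 scale of plain FPKM. With nothing added to the FPKM, the log2 ratios between libraries were −0.15 for Per1 and 0.17 for Per2, the lowest and highest of the members. The change in their pair follows from these values and is no separate result. It also leans on Per2, a gene of low level in libraries of unknown depth. The 3 genes summed to 33.4 and 32.9 FPKM.

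Cryptochrome genes encode the stronger repressors of the CLOCK and ARNTL dimer. Cry1, whose loss speeds up the mouse clock, read 10.9 FPKM with AAV-Control and 11.5 FPKM with AAV-Gata1, a log2 ratio of 0.076. Cry2, whose loss slows it down, read 25.02 and 24.17 FPKM, a log2 ratio of −0.048. Cry2 was therefore the more abundant of the pair per transcript length in both libraries, at 2.297 and 2.096 times Cry1.

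Activator genes were the closest to equal. Arntl, which mice need for any circadian rhythm of behaviour, read 12.04 FPKM with AAV-Control and 12.13 FPKM with AAV-Gata1, a difference of 0.788%. Clock, which encodes its partner, read 11.4 and 11.5 FPKM, a difference of 1.247%. Their log2 ratios were 0.010 and 0.016. Clock stood at 0.946 times Arntl in the control and 0.951 times in the Gata1 library.

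The REV-ERB genes encode nuclear receptors that bind heme and repress Arntl through RORE elements. Nr1d1 was the highest member in both libraries, at 30.7 and 29.6 FPKM, a log2 ratio of −0.049. Nr1d2 read 15.7 and 16.5 FPKM, a log2 ratio of 0.067. As with the period and cryptochrome genes, the members of the family lay on opposite sides of 0. Dbp, a bZIP factor that is among the outputs of the clock with the widest daily swing in mouse tissues, read 23.9 FPKM with AAV-Control and 22.9 FPKM with AAV-Gata1, a log2 ratio of −0.062. Set against Arntl, with which its transcript alternates over the day, Dbp stood at 1.99 times in the control and 1.88 times in the Gata1 library. For Nr1d1 the same ratio was 2.55 and 2.44.

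Ordered by level, the members ran from Nr1d1 through Cry2, Dbp, Per1, Nr1d2, Per3, Arntl, Clock and Cry1 to Per2 in the control. The order in the Gata1 library was the same apart from Per1 and Nr1d2, which changed places at 16.02 and 16.48 FPKM. Clock and Cry1 were level there, at 11.53 FPKM each. With 1 library per group the spread of a level is not known. Across the 2 libraries the values of Per1 and Nr1d2 overlap, as do those of Clock and Cry1. Those of the other neighbours in the order do not, but without replicates this does not settle their order. Among the 13740 genes Nr1d1 exceeded 75.6% in the control and Per2 13.8%, so the members reach from the lower to the upper part of the measured range. No gene was named as most like a member, since over 2 libraries a pattern is a single ratio: 768 other genes lay within 0.02 of the ratio of Per2, and 1994 within 0.02 of that of Arntl.

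Some members share their place in the genome with other genes. The mRNA kit was stranded, but the sources used here do not say if counting used the strand. Nr1d1 overlaps Thra, the gene of the thyroid hormone receptor alpha, which read 390.5 FPKM with AAV-Control and 381.5 FPKM with AAV-Gata1, 12.7 and 12.9 times the value of Nr1d1. Unless strand was used, fragments from the shared stretch can count toward either, so the level of Nr1d1 is uncertain. Dbp overlaps Sphk2, a sphingosine kinase gene at 13.4 and 12.3 FPKM. In all, 7 of the 10 members overlap another gene of the RefSeq table (GRCm38.p6), while Per1, Cry1 and Nr1d2 overlap none. Uts2, which overlaps Per3, was at 0.102 FPKM in the control and listed at 0 in the Gata1 library. The noncoding gene D930015M05Rik, which overlaps Cry2, was at 0.712 and 0.899 FPKM.

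Promoter windows were searched for the letters of elements known from the clock loop, and the windows printed are ones that hold a match. RefSeq windows of 250 bases before to 50 bases after a transcript start (GRCm38.p6) were used for 9 members, all but Per2, with 13 windows in all. Cry1 (window chr10:85185005-85185304, minus strand) and Per1 (window chr11:69098699-69098998, plus strand) each hold an E-box, in capitals.
Cry1: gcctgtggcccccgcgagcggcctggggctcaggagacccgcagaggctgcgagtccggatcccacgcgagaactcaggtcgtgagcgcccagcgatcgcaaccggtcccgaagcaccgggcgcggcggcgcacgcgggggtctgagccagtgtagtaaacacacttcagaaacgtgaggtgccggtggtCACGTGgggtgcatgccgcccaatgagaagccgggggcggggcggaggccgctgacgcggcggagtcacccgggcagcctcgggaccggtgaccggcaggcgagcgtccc
Per1: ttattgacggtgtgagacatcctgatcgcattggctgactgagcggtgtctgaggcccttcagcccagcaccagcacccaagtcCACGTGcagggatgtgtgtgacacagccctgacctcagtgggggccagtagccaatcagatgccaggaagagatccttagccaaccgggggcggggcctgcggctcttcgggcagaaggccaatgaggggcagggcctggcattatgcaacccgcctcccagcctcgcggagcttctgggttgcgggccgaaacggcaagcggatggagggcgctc
Per3 (window chr4:151044616-151044915, minus strand) holds a pair of D-boxes, in capitals, and Arntl (window chr7:113207261-113207560, plus strand) a pair of RORE elements, in capitals.
Per3: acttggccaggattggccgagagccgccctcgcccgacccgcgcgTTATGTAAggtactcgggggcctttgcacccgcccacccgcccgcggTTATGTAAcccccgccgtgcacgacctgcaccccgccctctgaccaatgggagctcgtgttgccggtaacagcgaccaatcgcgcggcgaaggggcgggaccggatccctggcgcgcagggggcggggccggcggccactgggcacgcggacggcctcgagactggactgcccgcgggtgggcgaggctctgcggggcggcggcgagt
Arntl: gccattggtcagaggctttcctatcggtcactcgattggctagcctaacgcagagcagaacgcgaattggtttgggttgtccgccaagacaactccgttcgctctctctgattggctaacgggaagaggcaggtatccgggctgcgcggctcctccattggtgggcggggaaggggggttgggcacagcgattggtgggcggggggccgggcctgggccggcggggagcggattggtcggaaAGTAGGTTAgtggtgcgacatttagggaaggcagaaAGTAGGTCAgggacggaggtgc
The E-box searched was CACGTG, the letters that the CLOCK and ARNTL dimer is known to bind, which 7.15% of all 32851 windows hold. The variant CACGTT, with its reverse AACGTG, was found in Cry1, Cry2 and Nr1d1, against 4.68% of all windows. The D-box, searched as TTATGTAA, its reverse TTACATAA and TTACGTAA, was found in Per3 alone among the members and in 1.06% of all windows. The RORE, searched as AGTAGGTNA and its reverse TNACCTACT, a form chosen after the Arntl windows had been seen, was found in both Arntl windows, which overlap, and in 0.591% of all windows. The core of the cAMP response element, TGACG or its reverse CGTCA, was found in Cry1, Cry2 and Per1, against 20.8% of all windows. These shares count windows, and some members have several. Counted by window, the E-box was in 2 of the 13 member windows and the CACGTT variant in 3. The D-box was in 1, the RORE in 2 and the cAMP response element core in 4. Sites bound by GATA factors, searched as AGATAA and the forms that have T first (TGATAA), or G last (AGATAG), or each of these changes (TGATAG), on both strands, had 0 matches in the 13 windows, while 29.8% of all windows hold one. No match of one motif overlapped a match of another. These matches describe letters within the windows only.

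**Figure D3:**
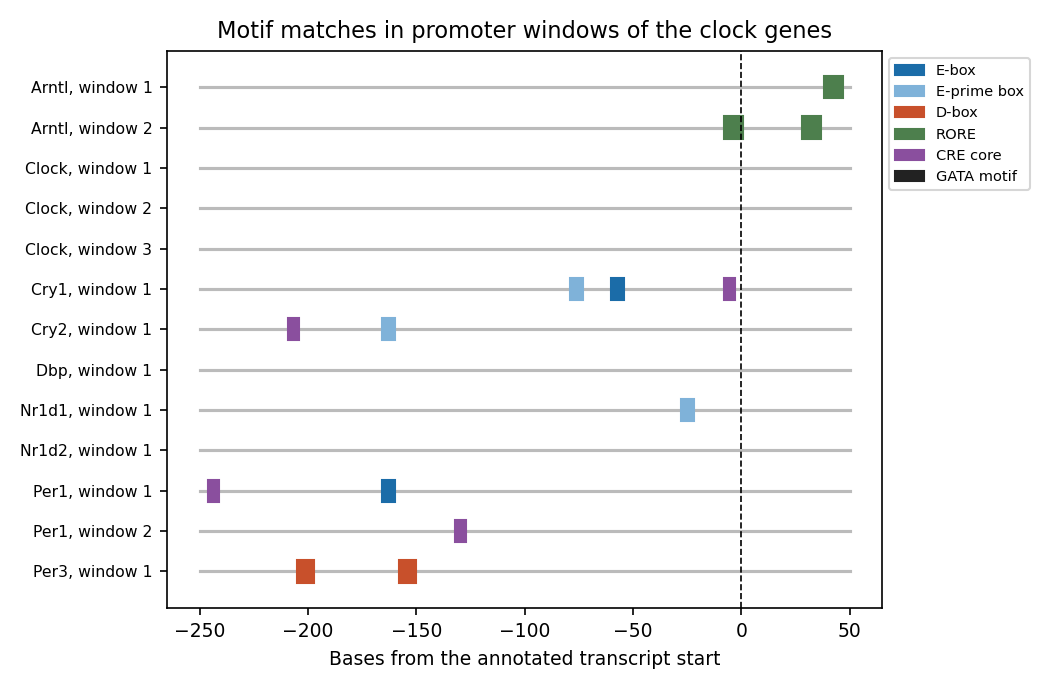
Motif matches (coloured blocks) in the 13 promoter windows of 9 clock genes (grey lines), by distance in bases from the annotated transcript start (dashed line). The Cry1 window holds an E-box and its variant, the Per3 window 2 D-boxes and the second Arntl window 2 RORE elements, and the windows of Clock, Dbp and Nr1d2 hold none of the motifs.

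Of 24 other genes of the clock reported here, 22 averaged at least 1 FPKM; Arntl2 (0.103 and 0.126 FPKM) and Fbxl21 (0.735 and 0.752 FPKM) did not. Among the 22, 11 were higher and 11 lower in the Gata1 library, at a median log2 ratio of 0.015, beside 45.3% higher and 54.7% lower of all genes. Past 1.2-fold 1 was higher and 0 lower, near the shares of 3.29% and 3.98% of all genes. That gene was Bhlhe41 (DEC2), a repressor that competes with CLOCK and ARNTL at E-boxes, at 5.28 FPKM with AAV-Control and 7.41 FPKM with AAV-Gata1. Its log2 ratio of 0.42 exceeded that of 98.8% of all genes. Its paralog Bhlhe40 (DEC1) read 18.6 and 19.0 FPKM. Bhlhe41 is also expressed by microglia, and all 6 of the microglia markers averaging at least 1 FPKM were higher in the Gata1 library, at a median of 0.26. Summed, those 6 stood at 181.7 FPKM with AAV-Control and 219.2 FPKM with AAV-Gata1, with Ctss at 22.8 and 29.1 FPKM, while P2ry12 (0.178 and 0.117 FPKM) and Tmem119 (0.0738 and 0.154 FPKM) were near 0. Their part in the Bhlhe41 difference was not tested.

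Among receptors that compete with the REV-ERB proteins at RORE elements and switch Arntl on, Rora read 9.66 and 9.48 FPKM, and Rorb 3.11 and 3.32 FPKM. Npas2, which can stand in for CLOCK in the mouse forebrain, read 4.64 FPKM with AAV-Control and 4.08 FPKM with AAV-Gata1, the lowest log2 ratio of the 22 at −0.15. The D-box activator gene Tef, a relative of Dbp, read 51.0 and 50.6 FPKM and its relative Hlf 3.60 and 3.78 FPKM, and Nfil3, which encodes a repressor at the same elements, read 12.2 and 13.2 FPKM. Tef was thus the most abundant of these D-box genes, above Dbp in both libraries. Ciart, a repressor of the CLOCK and ARNTL dimer, read 1.62 and 1.95 FPKM; it overlaps the noncoding gene C920021L13Rik, at 2.60 and 1.21 FPKM, which makes its value uncertain in the same way. Cipc, another such repressor, read 18.2 and 18.6 FPKM, and Timeless, in mammals a gene of replication forks as well, 4.16 and 4.69 FPKM.

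The next genes act on the stability of the clock proteins. The casein kinase 1 genes Csnk1d and Csnk1e, whose products mark the period proteins for destruction, read 69.2 and 66.0 FPKM, and 82.6 and 79.6 FPKM. With Csnk2a1 (50.6 and 49.2 FPKM) and Gsk3b (40.5 and 39.9 FPKM) all 4 kinase genes had the lower value with AAV-Gata1, as did 54.7% of all genes. The furthest of them, Csnk1d, had a log2 ratio of −0.067, and 29.9% of all genes had a lower ratio. The ubiquitin ligase genes Btrc (11.6 and 11.2 FPKM) and Fbxw11 (56.40 and 56.37 FPKM), which act on the period proteins, and the deubiquitinase gene Usp2 (15.2 and 15.9 FPKM) had log2 ratios of −0.041, −0.00080 and 0.063. Both genes of the corepressor used by the REV-ERB proteins were slightly lower, Ncor1 at 66.0 and 64.7 FPKM and Hdac3 at 62.2 and 59.8 FPKM. The output genes Nampt, of NAD synthesis, and Wee1, of the cell cycle, read 16.3 and 16.7 FPKM, and 5.37 and 5.63 FPKM.

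**Figure D4:**
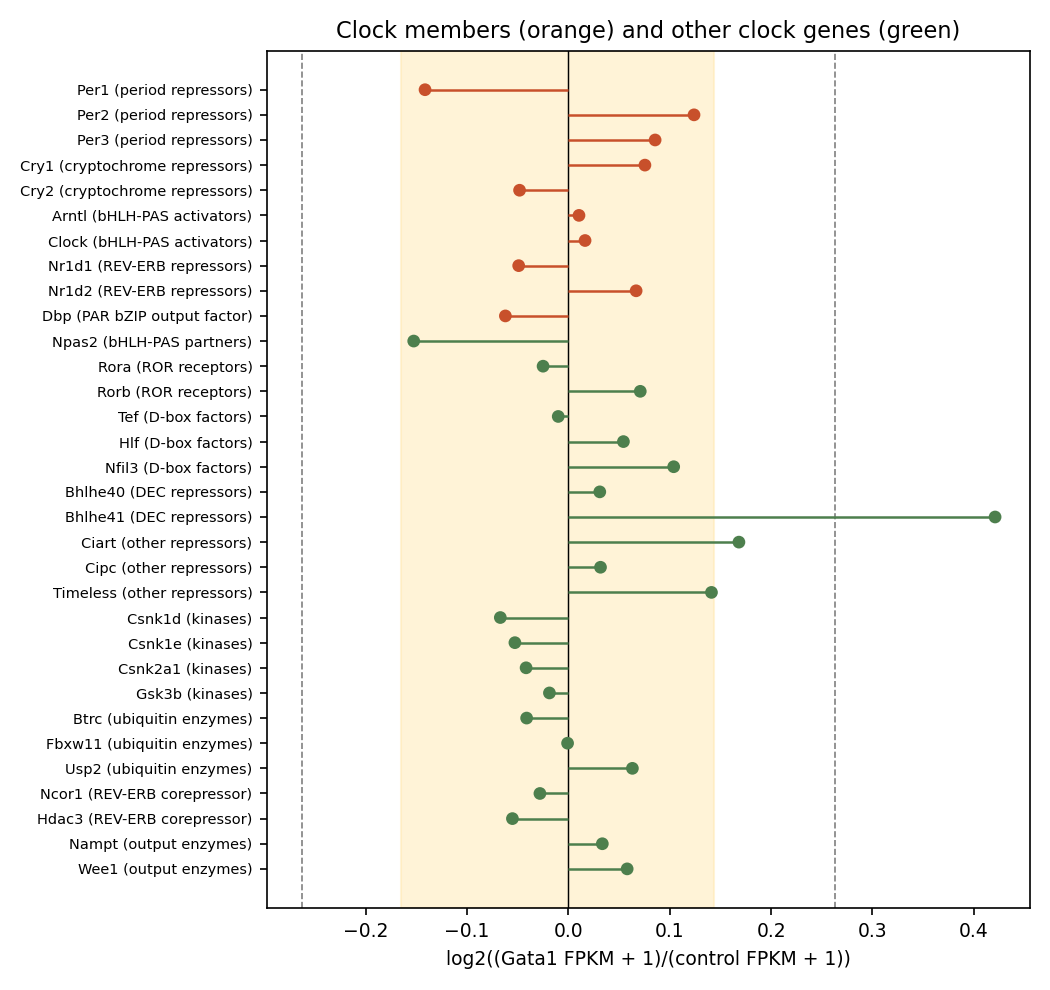
log2((Gata1 FPKM + 1)/(control FPKM + 1)) of the 10 clock members (orange) and the other 22 clock genes averaging at least 1 FPKM (green), 1 library per group. The shaded band is the middle 80% of all genes and the dashed lines mark 1.2-fold; Bhlhe41 at 0.42 is the 1 gene past them, and Ciart also lies outside the band.

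Target genes of signals that can reset the clock are given next, without a test of the signals themselves. Per1 and Per2 respond to activity through CREB, and of 11 measured genes of that kind 7 were higher and 4 lower. Their median log2 ratio was 0.029, and of all genes 45.3% were higher and 54.7% lower. Fos (16.1 and 21.5 FPKM) was the 1 gene of the list past 1.2-fold, upward, as were 3.29% of all genes. Junb (10.9 and 12.7 FPKM) and Egr1 (13.1 and 14.4 FPKM) were also higher. Bdnf (1.59 and 1.98 FPKM) passed 1.2-fold as well with a pseudocount of 0.1 or 0.01, where 4.94% and 5.11% of all genes did so upward. The 4 lower genes were Nr4a1 (7.84 and 7.19 FPKM), Arc (1.666 and 1.495 FPKM), Egr2 (1.44 and 1.32 FPKM) and Sik1 (4.09 and 4.05 FPKM). Glucocorticoids induce Per1 as well. Of 7 genes they induce, 2 were higher and 5 lower, at a median of −0.018, beside the same 45.3% and 54.7% of all genes. Zbtb16 (3.29 and 3.05 FPKM) and Fkbp5 (10.4 and 10.9 FPKM) were furthest from equal. Ddit4 (37.6 and 36.5 FPKM) and Tsc22d3 (25.004 and 24.683 FPKM) were most abundant. None of the 7 was past 1.2-fold, a size that 3.29% of all genes reached upward and 3.98% downward.

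The cell types of a culture all run a clock, so marker levels are given beside these results. The 7 measured neuronal markers summed to 759 FPKM with AAV-Control and 725 FPKM with AAV-Gata1, and all 7 were lower there. Of all genes, 45.3% were higher and 54.7% lower. Astrocyte markers summed to 2409 and 2402 FPKM (3 of 8 higher), and oligodendrocyte lineage markers to 250.9 and 234.3 FPKM (1 of 8 higher). Of 8 pericyte and fibroblast markers 4 averaged at least 1 FPKM, and these summed to 135.2 and 114.8 FPKM (1 of 4 higher). Among them Acta2 (76.4 and 60.7 FPKM) and Tagln (41.5 and 36.8 FPKM) were lower. Pdgfrb (13.60 and 13.57 FPKM) and Cspg4 (3.670 and 3.735 FPKM) barely differed. Rgs5, Col1a1, Col1a2 and Vtn averaged under 1 FPKM, and each was higher with AAV-Gata1. Of 6 endothelial markers only Kdr passed the minimum mean; Cldn5 was listed at 0 in the control and Cdh5 in the Gata1 library. The part of these differences in the clock gene values was not tested.

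The small RNA libraries allow the same question for microRNAs that earlier work has linked to the clock. Of 11 listed, 9 had at least 20 reads over both libraries. In the mouse master clock miR-132 and miR-219 are known to respond to light and to the clock, and miR-212 shares its transcript and its seed with miR-132. In mouse cells miR-24, miR-29a and miR-30a have been linked to the period mRNAs. The seed, bases 2 to 8 and the part that pairs with a target, is in capitals in the mature sequences (RefSeq, GRCm38.p6), which show that the seeds of the period-linked group differ from each other.
miR-132-3p: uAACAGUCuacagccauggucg
miR-212-3p: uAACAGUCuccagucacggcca
miR-24-3p: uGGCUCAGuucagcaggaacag
miR-29a-3p: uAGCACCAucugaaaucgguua
miR-30a-5p: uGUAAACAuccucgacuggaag

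Values are reads scaled to a common library total (CPM), with ratios given as Gata1 over control and exact 95% intervals that cover counting error of the reads of these libraries only. The most abundant, miR-30a-5p, read 3544 CPM with AAV-Control and 3254 CPM with AAV-Gata1, a ratio of 0.918 (0.906 to 0.930). miR-24-3p read 236.6 and 267.9 CPM, a ratio of 1.13 (1.08 to 1.19), and miR-29a-3p read 182 and 198 CPM, a ratio of 1.08 (1.03 to 1.15). These were the 3 of the 9 whose interval excluded 1, with 2 above and 1 below, beside 29.8% above and 19.4% below of all 563 microRNAs with at least 20 reads. Set against the median ratio of those 563, 1.036, in place of 1, the intervals of 1 microRNA (miR-24-3p) lay above and of 2 (miR-30a-5p and miR-132-3p) below, as did those of 21.3% and 25% of the 563.

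miR-132-3p read 377.6 and 372.7 CPM, a ratio of 0.987 (0.9498 to 1.026), and its partner arm miR-132-5p 27.5 and 25.5 CPM, a ratio of 0.926 (0.799 to 1.07). miR-212-3p read 11.8 and 14.2 CPM from 184 and 180 reads, a ratio of 1.21 (0.979 to 1.49), and miR-212-5p 28.7 and 26.3 CPM, a ratio of 0.916 (0.793 to 1.06). By its point value miR-212-3p was the 1 of the 9 past 1.2-fold upward, as were 25.6% of all 563 microRNAs, and its interval includes 1. None of the 9 was that far downward, as 19.7% of the 563 were. miR-192-5p (20.8 and 21.5 CPM, ratio 1.03) and miR-194-5p (22.96 and 22.70 CPM, ratio 0.988) were also within counting error of equal. At this depth miR-219a-5p, with 4 and 3 reads, and miR-142a-3p, a microRNA of blood cells linked to Arntl mRNA, with 0 and 5 reads, could not be compared; a count of 0 in the control allows up to 0.192 CPM.

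**Figure D5:**
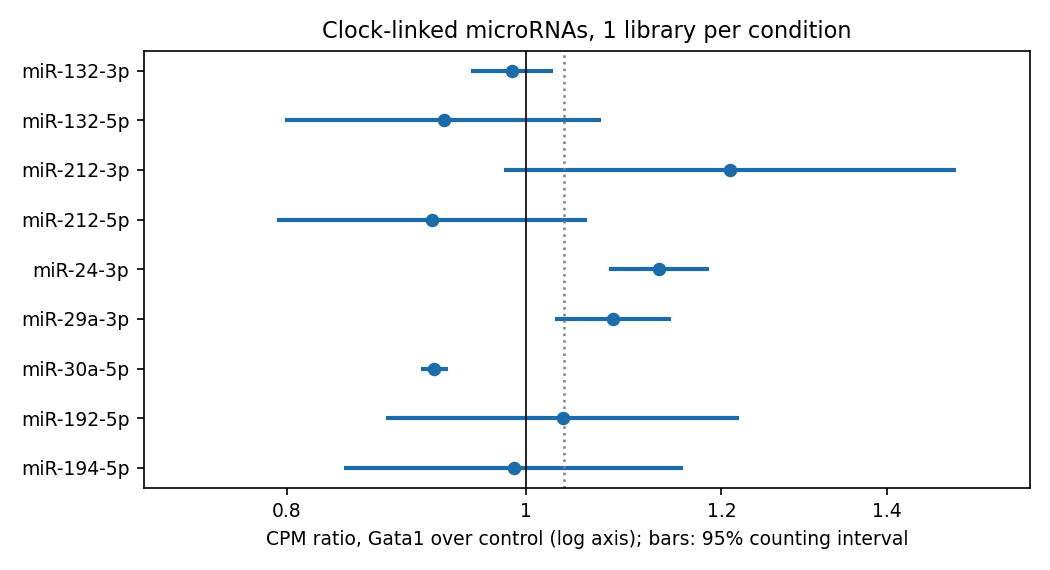
CPM ratio, Gata1 over control (log axis), of the 9 clock-linked microRNAs with at least 20 reads (points) with exact 95% counting intervals (bars), 1 library per condition. The solid line marks 1 and the dotted line the median ratio of all 563 microRNAs, 1.04; the bars of miR-24-3p and miR-29a-3p lie above 1 and that of miR-30a-5p below it.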

How the data were processed

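The mRNA values are FPKM computed by the authors, per the file headers. Small RNA values are CPM (the deposited columns are headed as normalized counts and sum to 1000000). The submitters' processing notes name edgeR 3.10.2, HTSeq 0.6.1p1, Bowtie 1.1.2, Cuffdiff 2.1.1, Cufflinks 2.1.1 and TopHat2 2.1.1 and the builds mm9 and mm10, without roles; the mRNA kit was stranded, per the labels' protocols. Of 10 samples 4 were used; 6 chromatin and input samples were not analysed here. From 40993 mRNA rows, 6 without a symbol (0.0122% and 0.0113% of the FPKM) were left out, and of several rows of a symbol the highest was used. A pseudocount of 1 FPKM was used for log2 ratios, and genes averaging at least 1 FPKM were compared. In the small RNA tables all values above 0 (100%) were whole multiples of 1 step within 0.0055 CPM, giving 15632553 (control) and 12644419 (Gata1) reads summed over precursor rows; the highest row per mature name was kept. No test between conditions could be made on these reads. The exact conditional binomial (Clopper-Pearson) intervals cover counting error only, hold no variation between cultures and do not replace such a test. PCR copies are not independent molecules. Members and lists were chosen with earlier results of these data known. Some listed clock genes are not reported here and entered no count of a list. All members, the remaining clock genes and clock-linked microRNAs were named; of the activity list, the glucocorticoid list and all markers taken as 1 list, the 2 furthest from equal and the 2 most abundant. Map2, Kdr, P2ry12, Tmem119, Cldn5, Cdh5, Bdnf, Nr4a1, Arc, Egr2 and Sik1 were named after their values were seen. So were Tagln, Pdgfrb, Cspg4, Rgs5, Col1a1, Col1a2 and Vtn. Settings varied were the pseudocount, the minimum mean, the handling of rows and the scaling. Calculations used Python 3.11.15, NumPy 2.4.6, pandas 2.3.3 and SciPy 1.17.1, and were tested on simulated data.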

Additional observations from a re-analysis of the deposited data

How the results depend on the processing

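All 69 recomputed log2 ratios of the 10 clock genes kept their sign under the 7 alternatives for pseudocount, minimum mean, rows and scaling. Only the scaling settings could have changed a sign. A pseudocount or a minimum mean cannot do so, and each member has a single row. The largest move was 0.041, and a minimum mean of 5 FPKM leaves out Per2. No member passed 1.2-fold under any alternative. For the other clock genes, a minimum mean of 5 FPKM left 17 genes, of which 7 were higher. It turned their median to −0.010, beside −0.013 over all genes at that minimum. Fewer genes are tested there. Past 1.2-fold, 452 of all 13740 genes were higher and 547 lower in the main setting (3.29% and 3.98%). At that minimum the counts were 193 and 240 of 10401 genes (1.86% and 2.31%). With no minimum they were 850 and 1032 of 40904 genes (2.08% and 2.52%), more genes but a smaller share. With a pseudocount of 0.01 they were 702 and 854 of 13740 genes (5.11% and 6.22%). Centring on the median of all microRNAs turned the log2 ratio of miR-192-5p to −0.0021 and moved the intervals of the 9 clear of equal from 2 higher and 1 lower to 1 higher and 2 lower. Averaging rows turned that of miR-194-5p to 0.074 and the median of the 9 microRNAs from −0.017 to 0.049. Of the genes induced by activity, 2 in place of 1 passed 1.2-fold upward with a pseudocount of 0.1 or 0.01. A minimum mean of 5 FPKM left 6 of the 11, with 5 higher and 1 lower. Arc, Egr2 and Sik1, lower in the main setting, fell below that minimum. In the 150 bases nearest the start, 1 member in place of 2 held an E-box, 0 in place of 1 a D-box and 1 in place of 3 the CRE core. A shorter stretch has less room for a match. The shares of all windows, counted by window and not by member, also fell. They went from 7.15% to 4.35% for the E-box, 1.06% to 0.578% for the D-box and 20.8% to 13.9% for the CRE core. No paired analysis was possible because each group has 1 library. The unknown depth of the mRNA libraries gives no interval for their values.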

Other observations

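Neighbours of clock genes gave a few values that no comparison above uses. Ttc19, a mitochondrial protein gene that overlaps Ncor1, read 18.2 FPKM with AAV-Control and 15.1 FPKM with AAV-Gata1, a log2 ratio of −0.26. The noncoding gene Gm7467, which overlaps Clock, read 0.731 and 1.26 FPKM. Slc16a3, a lactate transporter gene that overlaps Csnk1d, read 2.25 and 2.59 FPKM. Lect2, which overlaps Fbxl21, was listed at 0 in both libraries.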
